A study of Mus musculus with 3 samples.

Results

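CpG-dense stretches far from any annotated gene start were examined as 1 kb bins of the autosomes. A bin was taken when at least 50 CpGs were listed in it in any of the 3 libraries, when its centre lay more than 5 kb from the start of every gene of the GENCODE annotation of mm9, and when at least 10 of its CpGs had between 5 and 96 observations in REST knockout cells. No methylation value entered this choice. It gave 1510 bins out of 283728 autosomal bins with that number of covered CpGs, and 1514 bins before the coverage criterion. The gene annotation placed the centre of 1024 of them inside a gene, in 1002 cases a protein-coding gene, and that of 486 between genes. The bins lay at a median of 17.3 kb and at most 561.25 kb from the nearest gene start. Of the CpGs that the genome holds in these bins, 98.9% were listed, 106623 of 107788.

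CpG islands are stretches in which CpGs have been kept at high density, whereas most of the mammalian genome has lost CpGs over evolution because methylated cytosine mutates readily. Islands at promoters of mammalian genes are usually free of methylation. Islands away from annotated gene starts are called orphan islands, and they can mark alternative or unannotated promoters, coding exons rich in G and C, imprinted elements or repeated sequence.

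Methylation of the bins was measured by whole genome bisulfite sequencing (WG-BisSeq) of 1 library of REST knockout mouse embryonic stem (ES) cells, from a Black Agouti 129 background, and by bisulfite sequencing of chromatin immunoprecipitated with an anti-CTCF antibody (CTCF ChIP-BisSeq) in 2 replicates of wild type ES cells of mixed 129-C57Bl/6 background. Bisulfite leaves both methylcytosine and hydroxymethylcytosine unconverted, so that an observation read as methylated can be either of them. All cells were grown with serum and LIF, on feeder cells or on gelatine, and the DNA of each ChIP-BisSeq library was pooled from 5 immunoprecipitations. Genotype, strain and assay therefore differ together between the REST knockout library and the ChIP-BisSeq replicates and cannot be told apart, and methylation counts offer no transcript with which to check the cell type. The autosomes held 269197011 observations in the REST knockout library, 13178047 in replicate 1 and 24869052 in replicate 2. At the Rest gene, the exons at chr5:77695221-77695438 and chr5:77696957-77697848 had 0.0857 and 0.293 observations per CpG in REST knockout cells, against 29.7 in the exon at the gene start, while replicate 2 had 3.40 and 4.22 there and replicate 1 had 0 and 0.683. The bins themselves were well covered in REST knockout cells, with 2967670 observations in all, a median of 1689.5 per bin and 27.3 per CpG. Exact binomial intervals given below are at 95%. Those of the methylation of a bin cover counting error only, since reads copied by PCR are not independent molecules. Those of a share of bins take bins as independent.

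The sequences of 6 bins show the range of what a CpG-dense bin can be, each as the 200 bases with most CpGs, from the plus strand of mm9 with CpGs in capitals. The bins with the lowest and the highest methylation in REST knockout cells are shown for each place, in the genes Anks1b (chr10:90292299-90292498, intron) and Asph (chr4:9513116-9513315, intron) and, between genes, nearest to Gm10479 (chr12:20202609-20202808) and AC109245.1 (chr1:142861360-142861559). Plec (chr15:76003481-76003680, coding exon) was the most methylated coding exon, and Trappc9 (chr15:72640354-72640553, intron) differed most between the libraries, and both were chosen for display after their values were seen.
Anks1b: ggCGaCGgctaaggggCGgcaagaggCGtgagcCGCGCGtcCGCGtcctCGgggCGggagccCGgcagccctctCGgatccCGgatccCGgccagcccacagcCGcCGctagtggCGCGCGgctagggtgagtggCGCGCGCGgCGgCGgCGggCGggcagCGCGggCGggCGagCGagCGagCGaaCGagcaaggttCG
Gm10479: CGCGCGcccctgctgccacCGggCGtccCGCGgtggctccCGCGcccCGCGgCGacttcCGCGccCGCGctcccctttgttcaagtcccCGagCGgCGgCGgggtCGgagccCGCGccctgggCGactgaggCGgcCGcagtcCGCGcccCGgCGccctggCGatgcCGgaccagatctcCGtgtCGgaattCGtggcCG
Asph: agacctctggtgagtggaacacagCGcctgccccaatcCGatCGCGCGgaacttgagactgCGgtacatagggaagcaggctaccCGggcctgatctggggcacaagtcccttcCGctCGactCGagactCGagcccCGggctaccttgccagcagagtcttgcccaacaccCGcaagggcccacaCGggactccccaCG
AC109245.1: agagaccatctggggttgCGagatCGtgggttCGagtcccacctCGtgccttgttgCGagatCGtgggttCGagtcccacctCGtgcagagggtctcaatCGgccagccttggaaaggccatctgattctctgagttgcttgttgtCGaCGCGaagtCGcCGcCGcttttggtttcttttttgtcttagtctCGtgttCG
Plec: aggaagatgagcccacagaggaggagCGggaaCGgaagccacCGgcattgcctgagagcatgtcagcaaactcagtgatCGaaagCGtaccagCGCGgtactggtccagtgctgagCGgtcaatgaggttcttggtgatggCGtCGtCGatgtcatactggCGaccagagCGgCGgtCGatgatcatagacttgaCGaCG
Trappc9: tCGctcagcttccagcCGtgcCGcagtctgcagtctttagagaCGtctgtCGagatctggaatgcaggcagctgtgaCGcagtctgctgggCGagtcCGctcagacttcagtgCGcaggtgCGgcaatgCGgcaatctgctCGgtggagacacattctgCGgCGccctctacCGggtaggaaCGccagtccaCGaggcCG
The window of 200 bases held 37 CpGs in Anks1b and 36 in Gm10479, but 15 in Asph, 17 in AC109245.1, 17 in Plec and 18 in Trappc9. Matches to the CTCF consensus (13 bases, in capitals, with 8 bases on either side, 5′ to 3′ on the strand of the match) are shown for the 5 bins that held a match and were covered at 5 times the library mean or more in both ChIP-BisSeq replicates. All of them lay between genes, and the names are those of the nearest gene starts: Olfr750 (chr14:51684627-51684655, plus strand), Foxk1 (chr5:142843675-142843703, plus), a U6 gene on chromosome 13 (chr13:43960128-43960156, minus), a U6 gene on chromosome 7 (chr7:80763392-80763420, plus) and Azin1 (chr15:38403676-38403704, plus).
Olfr750: ttcgggagCGCCATCTGCTGGaaggacaa
Foxk1: atccgcagTGCCCCCTAGTGGcgcccgct
U6 on chromosome 13: cacggcacTGCCACCTTGTGGccggcggc
U6 on chromosome 7: cgcgcggcTGCCCCCTGGTGGccggacgc
Azin1: gggcgcagCGCCCTCTGCTGGtaaggcct
The matches near Olfr750 and Azin1 contained 1 CpG each, and the other 3 contained none.

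Most CpG-dense bins were nearly free of methylation in REST knockout cells, whether they lay inside or between genes. The median methylation, the share of methylated observations in a bin, was 6.51% (95% interval of the median 6.11 to 6.76%, 1510 bins), and 1018 bins were below 10%. Low methylation, under 20%, was found in 1292 bins (85.6%, exact interval 83.7 to 87.3%), intermediate methylation, from 20 to 60%, in 146 (9.67%) and high methylation, over 60%, in 72 (4.77%). The medians were 6.52% (6.06 to 6.98%) inside genes and 6.46% (5.88 to 7.07%) between genes, a difference of 0.0610 percentage points that is smaller than the interval of either median. This closeness held for starts of genes, whereas with the starts of every annotated transcript kept at the same distance the medians were 10.1% inside and 6.46% between genes, 3.60 points apart, over 831 bins. Annotated transcripts start inside genes, so this rule acts mainly on the bins inside genes. Inside genes the median was the higher on 10 of the 19 autosomes, so neither place was higher throughout. The share of bins of low methylation ranged from 74.3% to 95.7% over the autosomes.

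The remaining bins were spread differently in the 2 places, as a description without a test. Inside genes 117 bins (11.4%, 9.54 to 13.5%) were intermediate and 38 (3.71%, 2.64 to 5.06%) high. Between genes 29 (5.97%, 4.03 to 8.46%) were intermediate and 34 (6.996%, 4.89 to 9.64%) high. The intermediate shares had intervals that did not overlap, whereas those of the high shares did.

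**Figure D1:**
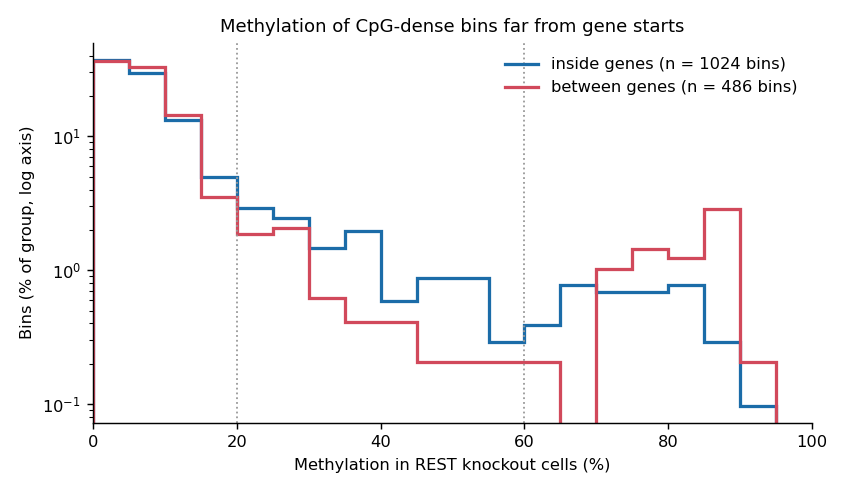
Methylation of the 1510 CpG-dense bins far from gene starts in REST knockout cells, as the percentage of the 1024 bins inside genes (blue) and of the 486 between genes (red) in steps of 5 percentage points on a log axis; steps without a bin are not drawn, and dotted lines mark 20% and 60%. Both groups peak below 10%, bins inside genes fill the range from 20 to 60% and bins between genes have a separate group above 70%.

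The number of CpGs in a bin went with its methylation. Bins of 50 to 59 CpGs had a median of 10.9% (10.0 to 11.8%, 623 bins), those of 60 to 79 CpGs 6.11%, those of 80 to 99 CpGs 4.12% and those of 100 CpGs or more 3.30% (3.03 to 3.61%, 160 bins). All 72 bins of high methylation had fewer than 80 CpGs, and 63 of them fewer than 60. The requirement of 50 CpGs cuts through this trend. Just inside it, 371 bins of 50 to 54 CpGs had a median of 11.8%, and just outside it, 516 equally distant bins of 45 to 49 CpGs had 18.01%. Bins over 5 kb from a gene start with 10 to 49 CpGs had a median of 73.6% (213174 bins). They make up most of the 283728 bins with enough covered CpGs, whose median was 71.4%. CpG-dense bins within 5 kb of a gene start had 4.49% (4.43 to 4.56%, 11334 bins), below the 6.51% of the distant ones, and 12 of them (0.106%) were highly methylated. At the distance limit no step was seen, with 7.17% (6.31 to 8.29%, 171 bins) from 4 to 5 kb and 7.61% (5.89 to 9.38%, 111 bins) from 5 to 6 kb. Further away the medians lay close together, at 7.08% from 5 to 10 kb, 6.76% from 10 to 20 kb, 6.02% from 20 to 50 kb and 6.24% beyond 50 kb. Base composition was alike, with a median of 61.5% G and C and an observed to expected ratio of CpGs of 0.72 in the distant bins, and 61.8% and 0.78 near gene starts.

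**Figure D2:**
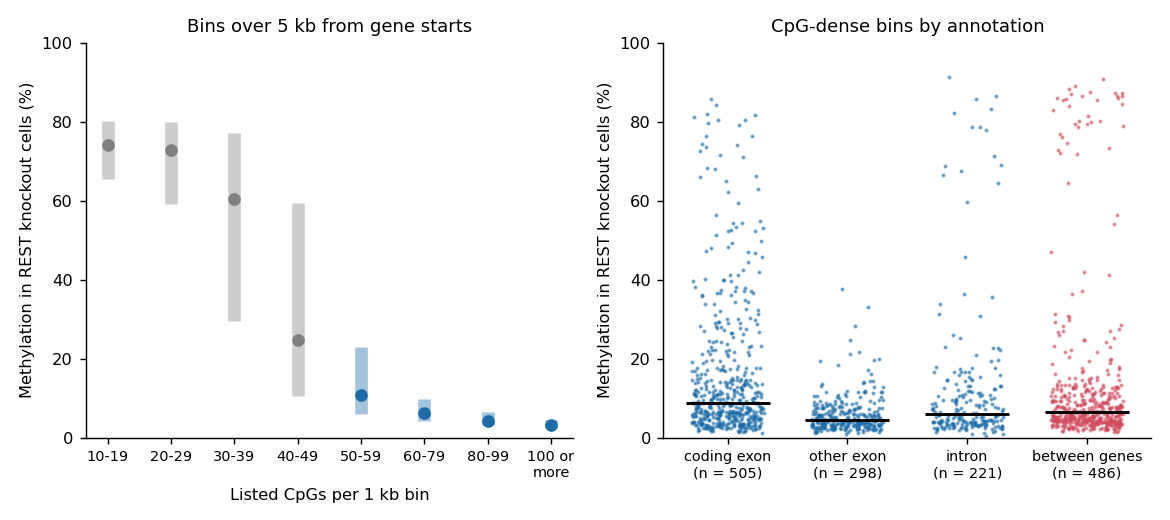
Left, median methylation in REST knockout cells (points) and its interquartile range (bars) of bins over 5 kb from gene starts by the number of listed CpGs, with the CpG-dense bins in blue and sparser bins in grey. Right, methylation of every CpG-dense bin by annotation (1 point per bin, spread sideways at random, line at the median), in which coding exons, introns and bins between genes reach over 60% and other exons, with fewer than 100 coding bases, stay below 40%.

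Bins of low methylation were islands in a methylated surrounding. Their own median was 5.63%, that of the flanking bins that were not CpG-dense themselves 27.4% and 28.8% at 1 kb on either side, 62.7% and 59.1% at 2 kb, and 70.2% and 71.0% at 10 kb. Around intermediate bins, at 29.9% themselves, the level was already 57.7% and 56.4% at 1 kb and 69.1% and 72.8% at 2 kb. Highly methylated bins did not stand out from their surroundings, with 79.4% in the bin, 78.0% and 79.1% at 1 kb and 76.2% and 76.1% at 10 kb. Neighbouring bins of the selection formed 1296 separate stretches, of which 1107 were a single bin, and the longest spanned 4 bins, among them those in Gnas, Gse1 and Ptch1.

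**Figure D3:**
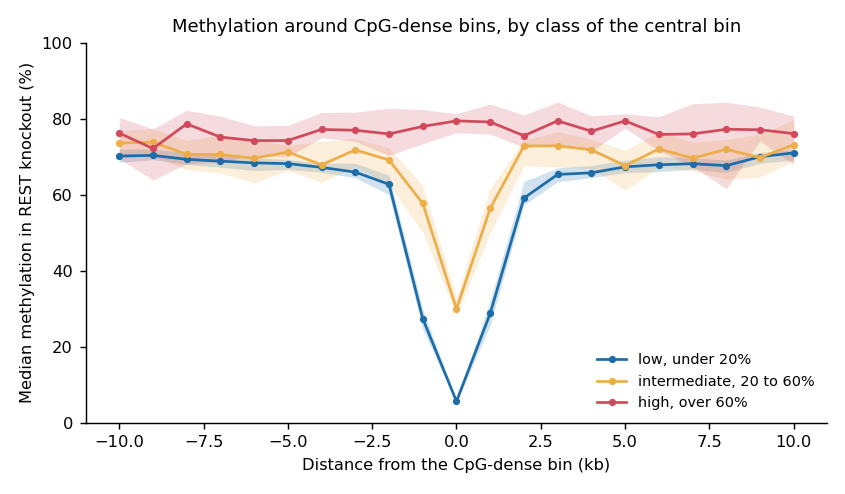
Median methylation in REST knockout cells of bins at up to 10 kb from CpG-dense bins of low (blue), intermediate (yellow) and high (red) methylation, with the 95% interval of the median shaded; flanking bins that are CpG-dense, within 5 kb of a gene start or with fewer than 5 covered CpGs were left out. Low bins sit in a dip that is about 2 kb wide on either side, and high bins lie level with their flanks.

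Inside genes, methylation levels differed by the part of the gene that the bin covered. A bin was assigned to coding exons when at least 100 of its bases were coding, to other exons (with fewer than 100 coding bases) when at least 100 bases were exonic, and to introns otherwise. The 505 bins with coding exons had a median of 8.86% (8.02 to 10.3%), with 97 intermediate and 24 high bins. The 298 bins with other exons had 4.48% (4.04 to 5.09%), with 6 intermediate bins and no high one, which allows a share of up to 1.23% (exact upper limit). The 221 intronic bins had 5.90% (5.08 to 7.31%), with 14 intermediate and 14 high bins. In the 77 bins that were coding over their whole length, the median was 28.1% (15.0 to 37.3%), with 33 low, 31 intermediate and 13 high bins.

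Many low bins inside genes lay at the start of an annotated transcript other than the one that sets the gene start. An annotated transcript began within 1 kb of the centre in 520 of the 869 low bins (59.8%), in 18 of the 117 intermediate bins (15.4%) and in 3 of the 38 high bins (7.89%). The 541 bins near a transcript start had a median of 4.83% (4.47 to 5.25%), and the 483 others one of 10.6% (9.38 to 11.7%). Of the bins with other exons, 93.3% were near a transcript start. Coding exons over 1 kb from any transcript start had 11.6% (10.5 to 13.7%, 323 bins), and 84 of them were intermediate and 21 high, while introns over 1 kb from one had 8.39% (140 bins). Between genes, 423 of the 486 bins were low. Of the 486, 1 lay within 1 kb of a transcript start, which follows largely from the choice of bins, since transcripts start inside their genes.

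The 5 lowest bins inside genes among those with at least 200 observations were in Anks1b, Zfp800, Agap1, Eif4e3 and Lats2. In Anks1b, which encodes a synaptic scaffold protein, 0.427% of 234 observations were methylated (exact interval 0.0108 to 2.36%), with 35 of its 92 CpGs covered deeply enough to count, and 0% of 45 and 1.20% of 83 in the ChIP-BisSeq replicates. In Zfp800, a zinc finger gene, the bin held 149 CpGs and 0.937% of 4909 observations were methylated (0.687 to 1.25%), and 2.44% of 123 and 7.05% of 156 in the replicates. Lats2, which encodes a kinase of the Hippo pathway, had 1.10% of 5443 observations methylated, in a bin with exons 440 bp from a transcript start. Agap1 had 0.971% and Eif4e3, a cap-binding protein, 1.03%. Between genes the lowest 5 bins had between 1.48% (Gm10479, 2155 observations) and 1.71% (34674 bp from the start of Ppp1r13b, 1808 observations), with 1.53% near Gm15707 and 1.63% near a U7 gene. The bin near Gm10295 was 354129 bp from any gene start and had 1.67% of 1196 observations methylated and 0% in both replicates, of 87 and 97 observations. All 10 of these bins were below 10% in each ChIP-BisSeq replicate as well, with 10 to 323 observations.

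Of the 72 highly methylated CpG-dense bins, 24 covered coding exons and 32 were mostly repeated sequence, with none in both, and the rest were 8 intronic bins and 8 bins between genes. To measure repetition, every 31-base word of a bin was looked up in the autosomes, X and Y. A word was taken as repeated when it occurred more than once, also where the further copy lay in the bin itself. In 71 of the 1510 bins at least 50% of the words were repeated, and these had a median methylation of 45.8% (8.89 to 78.6%), against 6.37% (6.04 to 6.66%) in the 1439 others. Of the 34 high bins between genes 26 were repeated in this sense, with a median of 47.5 copies of a word, and of the 38 high bins inside genes 6 were. Their coverage moved with this, at a median of 1.39 times the library mean per CpG in REST knockout cells for the 32 repeated high bins and 3.18 times for the 40 others, and its part in the result was not tested. How reads from repeated sequence were placed is not given in the sources used here. Not every repeated bin was methylated, since 30 of the 71 were low, beside 9 intermediate and 32 high ones. The 20 low ones between genes had a median of 3.31% (2.30 to 4.75%) and 2 to 8 copies of a word, among them Gm10479 with 5 copies.

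The 2 highest values were in repeated bins. In the Asph intron, whose words had a median of 2196 copies, 91.3% of 565 observations were methylated (88.7 to 93.5%), and neither ChIP-BisSeq replicate had an observation there. The intron of Gm20388, with 57.9% repeated words, had 85.6% of 843 observations methylated, and it too had no observation in ChIP-BisSeq. In the bin 102967 bp from the start of AC109245.1, with 41 copies, it was 90.9% of 407 observations, with 14 of 14 methylated in replicate 2 and no observation in replicate 1. The bins near Gm11997, Olfr1350 and Vmn2r95 lay 66415, 46796 and 35568 bp from those gene starts and had 88.2%, 87.4% and 87.2%. The latter 2 genes encode chemosensory receptors and are named only as the nearest starts. The bin near 9930005F22Rik, at 89.0% of 2869 observations, had 32.7% repeated words, and the bin beside it had 85.5% methylation and 78.7% repeated words.

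The 24 high bins with coding exons all had under 50% repeated words, lay in 21 genes and had a median of 74.1% (68.2 to 80.3%). Plec, the gene of the cytoskeletal linker plectin, had 4 of them. The 7 bins of Plec, between chr15:76003000 and chr15:76011999, were coding over their whole length and lay 14973 to 6973 bp from the nearest transcript start. From the farthest to the nearest bin their methylation was 85.7%, 76.3%, 74.3%, 68.2%, 42.3%, 17.1% and 24.5%. With 1787 to 5907 observations a bin, the exact intervals of neighbouring bins overlapped for 1 pair only, 74.5 to 78.1% and 72.2 to 76.2%. Replicate 2 had 93.1%, 82.9%, 71.7%, 79.6%, 38.7%, 30.6% and 27.6% in the same order, so that the 4 farthest bins were high in both libraries. Replicate 1 had 5 to 43 observations per bin there, too few for an order.
Zfhx3, a homeobox and zinc finger transcription factor, had 84.1% of 1428 observations methylated in 1 coding bin (82.1 to 86.0%) and 18.1% to 24.6% in its other 3, and replicates 1 and 2 had 100% and 88.1% in the former. Nrxn2, which encodes the presynaptic protein neurexin 2, had 80.5% in a coding bin 8391 bp from a transcript start, and 1.19%, 2.58% and 5.94% in the other 3, which lay within 1 kb of one. Further coding bins above 80% were in Fat1 (82.1%), an atypical cadherin, Dync1h1 (81.6%), the heavy chain of cytoplasmic dynein, Lrrc8a (81.2%), a subunit of the volume-regulated anion channel, and Prdm16 (80.3%), a transcriptional regulator of brown fat. Introns gave the other 14 high bins inside genes, of which Ulk4, with 86.4% of 1032 observations and 26.8% repeated words, was the highest of those under 50% repeated words.

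In intermediate bins, CpGs of low and of high methylation were both in the minority. In the 146 bins, a median of 29.6% of the CpGs had under 20% methylation and 8.19% had over 60%. The SD between the CpGs of a bin was 17.2 percentage points at the median, where counting error alone gave 9.60, against 8.50 and 5.01 in low bins. Between the left and the right 500 bp of a bin, methylation differed by a median of 14.4 points in the 142 intermediate bins with at least 5 covered CpGs on both sides, and by at least 30 points in 21 of them (14.8%). The 3 bins inside genes closest to 40% were coding, in Begain (40.1% of 2134 observations), Slc27a1 (39.9% of 2074) and Espnl (39.85% of 3596). Replicate 2 had 34.7%, 36.3% and 47.6% there, and replicate 1, with 9 to 32 observations, 31.25%, 44.4% and 100%. Begain encodes a postsynaptic protein, Slc27a1 a fatty acid transporter and Espnl a relative of the actin-bundling protein espin. Between genes the closest were bins near Fmnl3 (41.3%), AC132253.1 (42.0%) and AC115802.1 (37.0%), where 44.3%, 51.2% and 13.5% of the words were repeated.

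Most genes with several bins held low bins only, beside a share of 84.9% low among all bins inside genes. The 1024 bins lay in 766 genes, and of the 177 genes with at least 2 bins, 139 had low bins only and 33 had bins of more than 1 class. Neighbouring bins of a stretch were counted singly, and whether bins of a gene were more alike than those of different genes was not tested. Within a gene the lowest and the highest bin differed by a median of 3.73 points. Cacna1a, which encodes the pore of the P/Q-type calcium channel, had 4 bins from 1.36% to 5.14%, Ptch1, the Hedgehog receptor, 4 from 2.04% to 5.77%, and Dab2ip, a Ras GTPase activating protein, 5 from 3.54% to 9.53%. A low and a high bin together were found in 10 genes, among them Mxi1 (2.87% and 67.4%), an antagonist of Myc, and Caln1 (13.9% to 78.0%). In Mxi1 the high bin had 63.1% repeated words.

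Short lists of genes, set by symbol and not complete for any family, gave the following levels, beside a median of 6.52% with 869 low, 117 intermediate and 38 high among the 1024 bins inside genes. Listed homeobox genes (symbols such as Hox, Pax, Lhx, Tshz and Zfhx), which encode transcription factors of development, had 38 bins in 24 genes with a median of 11.1%, of which 30 were low, 6 intermediate and 2 high. The lowest were 2 neighbouring bins of Lhx2 at 2.43% and 2.53%, and the highest were Tshz2 (78.6%) and Zfhx3 (84.1%). Genes with symbols starting with Zfp or Zbtb, which encode zinc finger proteins, had 28 bins in 22 genes with a median of 7.26%, from Zfp800 (0.937%) and Zfp697 (1.47%) to Zfp64 (34.4%) and Zfp334 (63.1%), and 23 of them were low. Genes with symbols starting with Cacna1, Scn, Kcn, Grin, Shank or Ryr, which encode ion channels and synaptic proteins, had 28 bins in 18 genes with a median of 8.79% and 24 low bins, from Cacna1a (1.36%) and Cacna1d (2.54%) to Kcnk15 (34.97%) and Scn8a (44.6%), both coding exons. The listed genes of the extracellular matrix (collagens, laminins, Agrn, Hspg2, Fbn and Eln) and Notch receptors had 4 bins, 2 of Notch1 (3.66% and 9.36%), 1 of Col8a2 (6.06%) and 1 of Hspg2 (36.7%), the gene of the matrix proteoglycan perlecan, while Matn4, a matrix gene that is not on the list, had 83.1%. The listed imprinted genes, which are expressed from 1 parental allele, had 8 bins in 4 genes, and Zdbf2, an imprinted gene that is not on the list, had 1 at 20.9%. Gnas, the gene of a G protein subunit, had 4 neighbouring bins at 11.5%, 7.96%, 3.08% and 2.96%, the last of which is also inside AF085738, Kcnq1, a potassium channel gene, had 1 at 19.3%, Grb10, an adaptor that restrains growth factor signalling, had 2 at 28.2% and 24.8%, and Trappc9, of a vesicle tethering complex, had 1 at 69.1%.

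The CTCF ChIP-BisSeq libraries, which collect DNA bound by the insulator protein CTCF together with background fragments, covered these bins unevenly. Coverage was expressed as observations per CpG listed in any library, over a library mean. That mean was taken over the library's own listed CpGs of up to 96 observations. CpGs that a library lacks thus lower the former only, so most ChIP-BisSeq values fall below the mean and libraries are not on the same scale. The median coverage was 0.204 in replicate 1 and 0.580 in replicate 2, close to the CpG-dense bins at gene starts (0.237 and 0.601) and above sparser bins at the same distance (0.0520 and 0.244). It was 0.231 and 0.619 in low bins, 0.0955 and 0.510 in intermediate bins and 0.0174 and 0.141 in high bins, whereas the REST knockout library had 2.57, 2.72 and 2.23 times its mean in the same bins. Among the high bins, the ChIP-BisSeq values were 0 and 0.0590 in the 32 with at least 50% repeated words and 0.0363 and 0.307 in the 40 others. Both replicates reached 5 times the mean in 20 bins (1.32%), 4 inside and 16 between genes, compared with 126 of the 11334 dense bins at gene starts (1.11%) and 704 of the 213174 sparser ones (0.330%).

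All 20 of these CTCF-rich bins were low in REST knockout cells (exact interval 83.2 to 100%), beside 85.6% of all 1510 bins. They ranged from 1.36% to 19.7% with a median of 5.12% (4.23 to 7.37%), beside 6.51% for all 1510 bins. Both intervals include the value of all 1510 bins. The medians of the 20 bins were 2.19% and 3.49% in the replicates. The most covered were a bin 137266 bp from the start of Smad2 (12.4 and 40.5 times the mean) and a bin of Cacna1a with coding exons (13.4 and 31.2 times). In the Cacna1a bin, 1.36% of 3228 observations were methylated in REST knockout cells, 2.15% of 7379 in replicate 1 and 4.38% of 11288 in replicate 2. The other 3 Cacna1a bins were not enriched to this degree, as replicate 1 had 78 to 180 observations in each. Bins near Zfp239 (9.02 and 15.8 times) and Yy1 (6.90 and 14.3 times) and a coding bin of Prrt3 (6.41 and 15.4 times) followed, with 4.23%, 5.14% and 6.60% methylation in REST knockout cells. An exact match to the CTCF consensus on either strand was held by 34 of the 1510 bins (2.25%) and by 1.87% of the dense bins at gene starts. Bins with a match had median coverages of 1.95 and 4.69 times the mean and those without 0.201 and 0.572, and 5 of the 20 CTCF-rich bins had one. Those 5, whose matches are printed above, were covered 5.14 to 6.87 times in replicate 1 and 7.72 to 12.8 times in replicate 2. At the bin near Olfr750, which had the highest coverage in replicate 2 among them, methylation was 13.1% in REST knockout cells and 0.907% and 3.44% in the replicates. A match is a description of the letters and does not show a bound site.

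To ask whether methylation of these bins differed between the libraries, the methylated and unmethylated counts of replicates 1 and 2 were each set against those of REST knockout cells at the same CpGs by Fisher's exact test (two-sided) with Benjamini-Hochberg adjustment over 28023 bins with at least 30 observations in each replicate. A call required, for replicate 1 as well as replicate 2, an adjusted p below 0.05 and a difference of 20 points or more, with the same sign. The test compares libraries, not conditions, and it takes observations as independent, whereas the replicates differed with 5.28 times the variance of counting. It could be made for 1152 of the 1510 bins, 1083 low, 62 intermediate and 7 high ones, and not for 358 with too few observations. Over these 1152 bins the median methylation was 5.74% in REST knockout cells, 3.72% in replicate 1 and 5.31% in replicate 2. In 1084 of them (94.1%) both replicates were within 20 points of REST knockout cells, beside 79.2% of all bins tested and 98.1% of the dense bins at gene starts. Among low bins alone it was 96.2%, beside 97.1% of all low bins tested. Of the 1152, 5 (0.434%) were called lower in ChIP-BisSeq and 5 (0.434%) higher, beside 7.24% and 1.10% of all bins tested. A low bin cannot fall by 20 points, and all 5 lower calls came from the 62 intermediate and 7 high bins. Of the intermediate bins 6.45% were called lower and 3.23% higher, beside 18.7% and 2.90% of all intermediate bins tested. Of the low bins 0.185% were called higher, beside 0.142% of all low bins tested. The replicates themselves differed by the same thresholds in 60 of the bins (5.21%), with 37 higher in replicate 1 and 23 higher in replicate 2, beside 7.84% of all bins tested. The number of calls rested on requiring both replicates, since 29 bins were called with replicate 2 alone and 50 with replicate 1 alone.

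**Figure D4:**
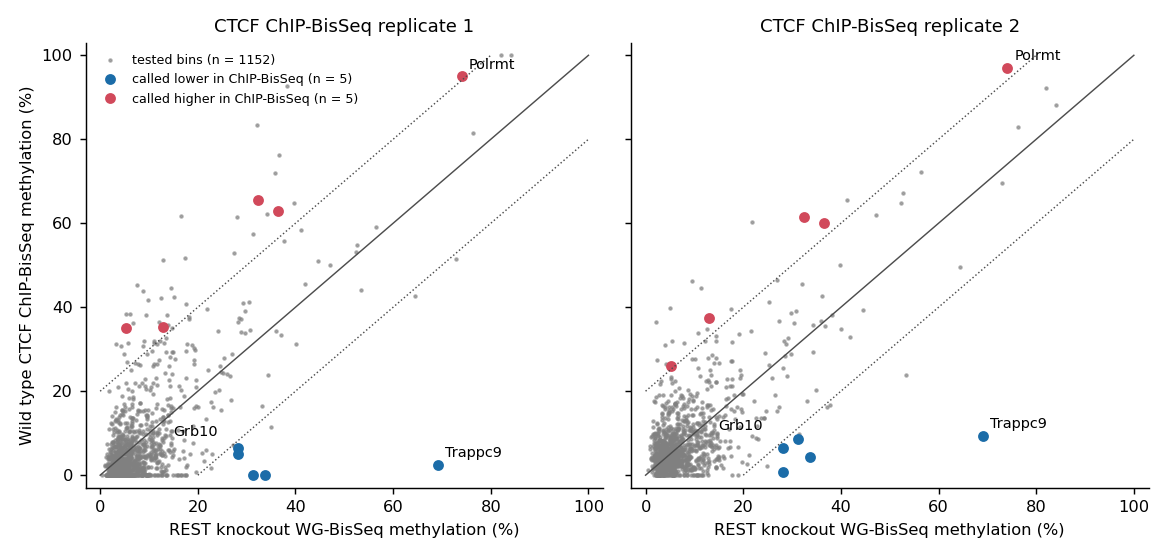
Methylation of the 1152 tested CpG-dense bins in REST knockout cells (x axis) and in each wild type CTCF ChIP-BisSeq replicate (y axis), in percent, with the line of equality and dotted lines at 20 points from it; bins called lower (blue, 5) or higher (red, 5) in both replicates are enlarged. Most bins crowd at low values on both axes, and the Trappc9 bin stands alone at 69.1% against 2.52% and 9.43%.

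The largest difference was in an intron of Trappc9, whose sequence is printed above. In this bin, chr15:72640000-72640999, 69.1% of 1598 observations were methylated in REST knockout cells (66.8 to 71.4%), 2.52% of 436 in replicate 1 and 9.43% of 785 in replicate 2 (adjusted p by Fisher's exact test 3.22e-154 and 2.03e-179). The 58 CpGs ranged from 41.2% to 93.1% in REST knockout cells, with 55 over 50%, whereas 1 of the 24 CpGs with at least 5 observations in replicate 1 and 1 of 45 in replicate 2 were over 50%. In the neighbouring bins REST knockout cells had 64.1% and 74.8%, replicate 1 had 48.0% of 75 observations and 40% of 15, and replicate 2 had 13.1% of 137 and 33.3% of 21. At 2 kb on either side every observation of either replicate was methylated, of 4 to 16, against 77.8% and 74.0% in REST knockout cells. The bin held no exact CTCF match, and matches with a differing base were not looked for. It was covered at 1.56 and 4.27 times the mean in the replicates, where the medians of all 1510 bins were 0.204 and 0.580.

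**Figure D5:**
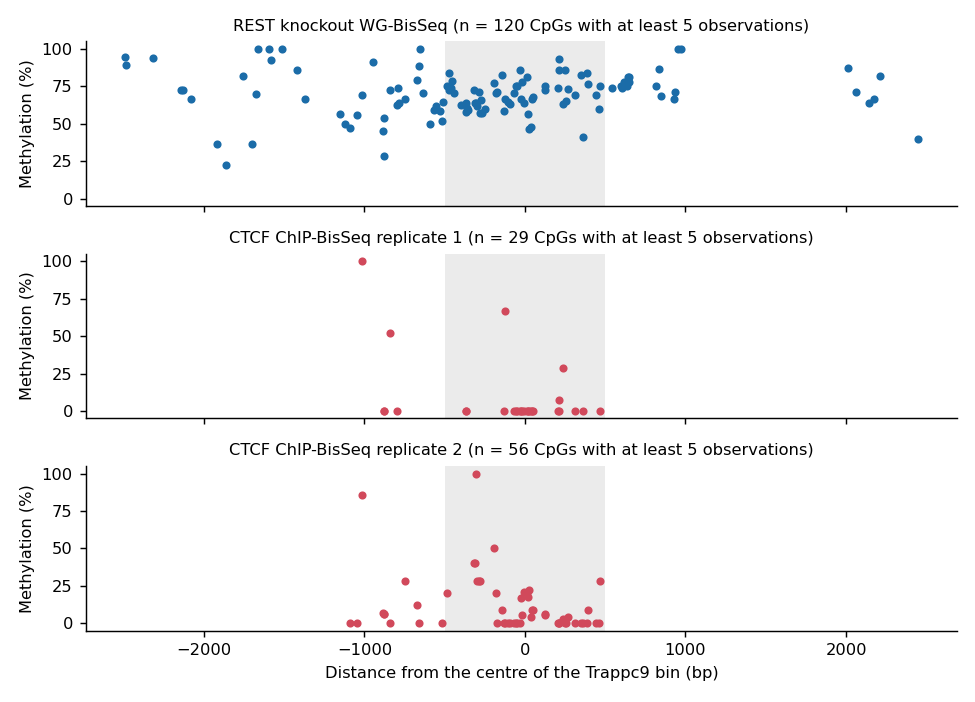
Methylation of single CpGs with at least 5 observations around the Trappc9 bin (grey) in the REST knockout library (120 CpGs, blue) and in the 2 CTCF ChIP-BisSeq replicates (29 and 56 CpGs, red), against the distance from the centre of the bin in bp. Within the bin the REST knockout CpGs lie between 41.2% and 93.1%, and most CpGs of both replicates are at or near 0%.

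The other lower calls were smaller, with adjusted p by Fisher's exact test from 2.17e-52 to 0.00288. Those of Ostm1 and Cxxc5 were lost in a normal test of the pooled replicates, with its variance scaled by the spread between them. That test does not require each replicate to pass by itself. In Grb10, at chr11:11925000-11925999, 28.2% of 1542 observations were methylated in REST knockout cells (26.0 to 30.5%), 5.00% of 760 in replicate 1 and 6.43% of 1306 in replicate 2. The neighbouring Grb10 bin, with 102 CpGs, had 24.8% of 4207 observations in REST knockout cells, 15.6% of 109 and 2.20% of 182 in the replicates, and was not called. The intron of Ostm1, which encodes a lysosomal chloride transporter subunit, went from 33.7% of 445 observations to 0% of 38 and 4.35% of 46. The bin of Aarsd1, a gene for an alanyl-tRNA editing protein, went from 28.2% of 557 to 6.41% of 78 and 0.699% of 143, and a bin 60028 bp from the start of Cxxc5 from 31.2% of 317 to 0% of 57 and 8.51% of 47. Among the 5 lower bins only those of Trappc9 and Grb10 were covered above the library mean in both replicates.

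The 5 bins called higher in ChIP-BisSeq were covered at 0.123 to 0.225 times the library mean in replicate 1 and 0.379 to 0.631 times in replicate 2. The medians of all 1510 bins were 0.204 and 0.580. Their adjusted p by Fisher's exact test ranged from 6.83e-10 to 0.00787. The calls of Mtss1l, Pard6b and Polrmt were lost in the normal test of the pooled replicates. Mtss1l, the gene of a membrane-bending protein, had 32.4% of 1688 observations in REST knockout cells, and 65.6% of 32 and 61.5% of 65 in the replicates. Pard6b, which encodes a cell polarity protein, had 36.5%, 62.9% and 60%, and Polrmt, the mitochondrial RNA polymerase, 74.0%, 95.0% and 97.1%. Pde4a, a cAMP phosphodiesterase, had 5.24% of 1545 observations, 35.1% of 37 and 26.0% of 104, and the bin near AC044864.1 had 12.9%, 35.2% and 37.5%. Replicate 1 had 32 to 54 observations in each of these 5 bins, and replicate 2 had 65 to 104.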

How the data were processed

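For each library the authors deposited, per CpG, the count of all observations and the count of methylated observations, and list CpGs with at least 1 observation on mm9. The submitters' processing notes name Bowtie 0.10.0.1, with no role. Whether both strands were combined or duplicate reads removed is not given in the sources used here. Counts were summed in 1 kb bins over CpGs with 5 to 96 observations in REST knockout cells, and genes were taken from GENCODE vM1. The members and lists were chosen with earlier results of these data known. Bins named are, inside and between genes, the 5 lowest, the 5 highest and the 3 nearest to 40% among bins with at least 200 observations, the 5 most covered in ChIP-BisSeq, the bins called different and the extremes of each gene list, and other bins were named after their values were seen. Libraries were compared by Fisher's exact test (SciPy 1.17.1) with Benjamini-Hochberg adjustment, and replicates by the same test. Intervals of shares are exact binomial ones (Clopper-Pearson), and those of medians come from order statistics over bins, which are not replicates. The test was tried on simulated counts with shifts of 40 points and counting error only. The replicates here spread more widely than that, so the trial does not measure the error rate of the calls. Python 3.11.15, NumPy 2.4.6, pandas 2.3.3, numba 0.67.0 and matplotlib 3.10.9 were used. The alternatives tried concern coverage, CpG density, distance to gene starts, bin position and the calling rule.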

Additional observations from a re-analysis of the deposited data

How the results depend on the processing

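The levels of the bins moved with their definition. As the mean over CpGs, the medians were 7.85% inside and 7.80% between genes. With at least 40 CpGs, 2910 bins had medians of 11.5% and 11.04%, and with at least 60 CpGs, 887 bins had 5.01% and 4.79%. With the starts of every annotated transcript excluded, 831 bins were left, the median inside genes was 10.1% and the difference of the medians was 3.60 points. Over 14 alternatives the share of low bins ranged from 65.8% to 94.9%, that of intermediate bins from 4.06% to 19.9% and that of high bins from 1.01% to 14.2%. Without bins of 50% or more repeated words, an alternative chosen after seeing the data, 87.7% of 1439 bins were low and 2.78% high.

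The number of bins called different, 10 with 5 in each direction, ranged from 29 to 50 when 1 replicate was left out, with 9 to 10 lower and 19 to 41 higher. It was 4 (3 lower, 1 higher) with at least 50 observations, 18 (12 higher) with at least 10, and 1 (Trappc9, lower, with 0 higher) at 30 points. With CpGs of at least 10 observations 3 were lower. With overdispersion, in the normal test of the pooled replicates, 3 were lower and 8 higher. Of the 5 bins called higher by Fisher's exact test, only those of Pde4a and near AC044864.1 were among these 8. Differences between the replicates of at least 30 points were found in 18 bins. Over all CpGs covered in a replicate, the replicate medians were 4.55% and 6.64%. The 10 called bins lost the call in 14 of 48 values, all of them at 30 points or with overdispersion. These 48 leave out Ostm1 and Cxxc5 with CpGs of at least 10 observations, where neither could be tested. They also leave out the settings of at least 50 and at least 10 observations in each replicate. The cause of the differences was not tested.

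No paired analysis was possible because there is 1 REST knockout library, to which the labels give no replicate number. The alternative that leaves out repeats marked in lower case was not run, since the genome used here has no such marks. With 1 library of REST knockout cells, spread between cultures of that genotype could not be measured, and high bins were mostly too thinly covered in ChIP-BisSeq to be tested.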
